A study of Danio rerio with 12 samples.

Results

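Long wavelength-sensitive (LWS) cones, the red-sensitive cones of the zebrafish retina, were compared with other retinal cells of the same zebrafish line by bulk RNA-Seq. The tested cells were tdTomato+ LWS cones, with 3 libraries, and they were set against tdTomato- retinal cells, also with 3 libraries. Both were sorted by fluorescence-activated cell sorting (FACS) from adult fish of the thrb2:tdTomato transgenic line, whose genotype the labels give as WT. These 6 libraries, chosen by their group labels, are part of a series of 12. The other 6 were sorted from the lws:PAC(H) line, in which GFP reports lws1 and RFP reports lws2, and they are named LWS1 and LWS2 below. All fish were kept in the dark and collected near light onset, and their retinas were dissected away from the retinal pigment epithelium before dissociation.

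In the thrb2:tdTomato line the reporter is driven by the promoter of thyroid hormone receptor beta 2, so the gene that defines the sort is thrb itself. The tdTomato- cells were everything else that passed the sort, which can include rods, the other cones, inner retinal neurons, glia and any LWS cone with little reporter. The labels name cone photoreceptor as their cell type, whereas their treatment label says retinal cells. Neither the number of fish behind a library nor whether replicates came from separate fish was stated, so the p-values measure only the spread between these samples, which may be technical.

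Cones detect light through an opsin coupled to the cone transducin, a phosphodiesterase and a cyclic nucleotide-gated channel, and different cone types differ in the opsin they express. Zebrafish carry tandem copies of the LWS opsin gene (opn1lw1 and opn1lw2) and of the green-sensitive opsin gene (opn1mw1 to opn1mw4), with single genes for the ultraviolet-sensitive (opn1sw1) and blue-sensitive (opn1sw2) opsins. The beta thyroid hormone receptor is needed for LWS cones to form. Müller glia, the main glial cells of the retina, clear glutamate, buffer ions and water and recycle visual pigment.

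The libraries were uneven in ways the groups did not explain. Total counts were between 2033038 and 2863183 in the tdTomato+ libraries and were 459226, 3189337 and 2191334 in tdTomato- replicates 1, 2 and 3. Scaled to the library total, a floor of 3 counts equalled between 0.941 and 6.53 CPM (counts per 1e6). Mitochondrially encoded features, 13 in number, took 22%, 71.7% and 41.2% of the counts in tdTomato+ replicates 1, 2 and 3, and between 53.4% and 54.3% in the tdTomato- libraries. A two-sided exact permutation test did not separate the groups (mean 45.0% ± 25.1 in tdTomato+ and 53.9% ± 0.464 in tdTomato-, SD, n = 3 each, p = 0.7, where 0.1 is the smallest p this design allows), and without tdTomato+ replicate 1 the difference was 2.58 percentage points in the other direction. The 10 highest features took 47.8% ± 20.5 of the counts in tdTomato+ and 55.2% ± 2.07 in tdTomato- (SD, n = 3 each, exact permutation p = 0.7), and here too the sign turned without tdTomato+ replicate 1 (1.13 percentage points). Within each group every pair of replicates differed by far more than counting noise allows, with a chi-square of 12 to 209 for each degree of freedom, and all 6 libraries were counted as separate samples.

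Many more features passed the test as lower in LWS cones than as higher. Of 8236 features with enough counts to test, out of 30258, 12 were higher in tdTomato+ (0.146% of those tested) and 164 were lower (1.99%), at FDR < 0.05 and an absolute fold change above 2 in edgeR's quasi-likelihood test. The libraries of the 2 groups did not overlap for any of these 176 features. Over all features tested, 717 (8.71%) had all tdTomato+ libraries above all tdTomato- libraries and 889 (10.8%) had them all below. An unadjusted p under 0.05 was reached by 390 features higher (4.74%) and 715 lower (8.68%). DESeq2, the tool named in the study's methods, called 73 of 20968 features higher (0.348%) and 425 lower (2.03%), and its calls included each of the 176. The median log2 fold change over all features tested was 0.11, and the fold changes below can be read against it. In bulk samples such as these, fewer cells of a type and less RNA per cell cannot be told apart.

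**Figure D1:**
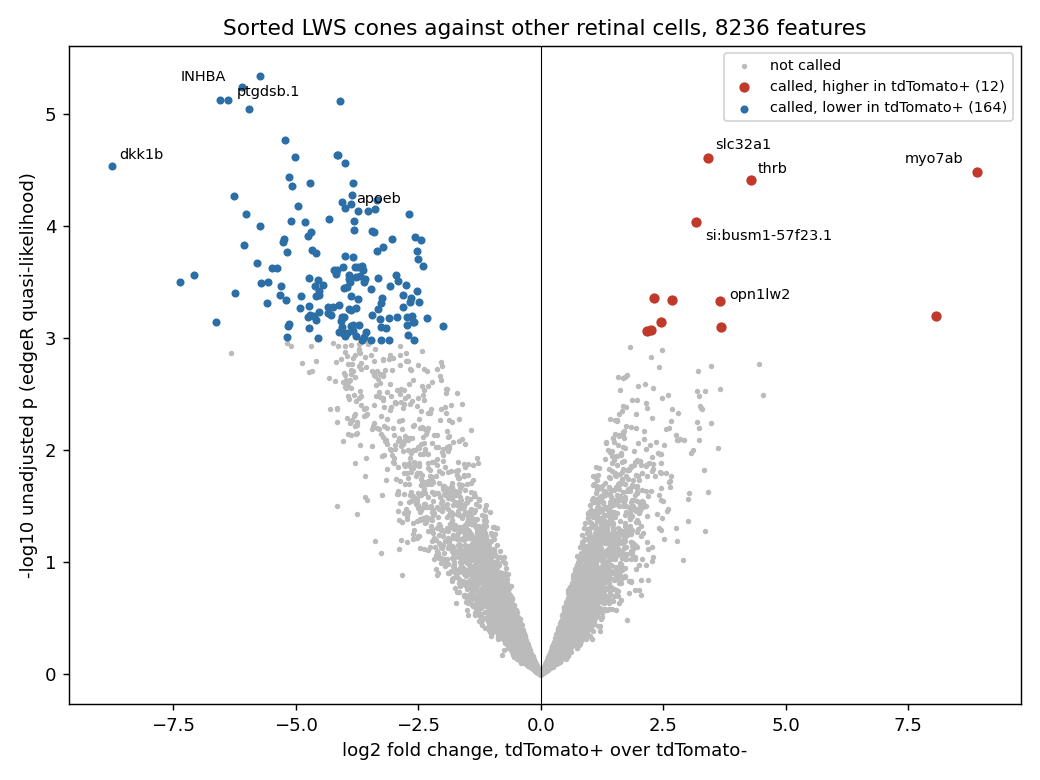
Each point is 1 of 8236 features, with the log2 fold change of tdTomato+ over tdTomato- on the horizontal axis and −log10 of the unadjusted edgeR p on the vertical axis; red points are the 12 features called higher and blue points the 164 called lower. The fitted values at the far right (myo7ab) and far left (dkk1b) belong to features with no counts in one group, so they depend on a prior count and are no measure of size.

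No feature was called in all 6 fits that left out 1 library. Without tdTomato+ replicate 3 no feature was called in either direction in edgeR (211 higher and 632 lower at an unadjusted p under 0.05), and without tdTomato- replicate 2 none was called higher and 1 lower (184 and 642 at an unadjusted p under 0.05). Without tdTomato- replicate 1, the library with the fewest counts, 14 were called higher and 158 lower, 7 and 132 of them among the 12 and the 164. Each of the 12 features kept its sign in every fit tried, with an adjusted p between 0.0761 and 0.178 without tdTomato+ replicate 3 and between 0.0719 and 0.205 without tdTomato- replicate 2.

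The 12 features called higher in LWS cones included thrb, whose promoter drives the reporter, 1 LWS opsin feature, the vesicular transporter slc32a1, the myosin gene myo7ab, rd3 and the Ca2+ channel subunit cacna2d4a. thrb had 418.5, 781.6 and 1014.4 CPM (here per TMM-scaled library) in tdTomato+ replicates 1, 2 and 3, against 11.1, 25.6 and 71.2 CPM in tdTomato-. This was a log2 fold change of 4.28 (SE 0.679, edgeR adjusted p = 0.0189), and since the thrb2 promoter drives the reporter it is a check of the sort rather than a finding. By thrb alone the libraries were separated as their labels say, and how pure either fraction was cannot be read from this gene. thrb encodes a receptor for thyroid hormone, and which receptor mediates the hormone's effects on these cones was not tested.

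slc32a1, which encodes the vesicular transporter that loads GABA and glycine into synaptic vesicles, had 131.5, 164.01 and 180.3 CPM in tdTomato+ and 5.6, 14.3 and 21.1 CPM in tdTomato- (log2 fold change 3.41, SE 0.517, edgeR adjusted p = 0.0186). The lowest tdTomato+ library was above every tdTomato- library, and the tdTomato+ libraries were close to each other. It was listed among the amacrine cell markers, and none of the other 7 tested members of that list passed the test. GAD1, which makes GABA, had 4.3, 41.5 and 21.6 CPM in tdTomato+ and 27.9, 45.0 and 54.5 CPM in tdTomato- (log2 fold change -0.97, SE 0.697), and pax6b, a transcription factor of amacrine and ganglion cells, had 0.2, 1.2 and 6.8 CPM in tdTomato+ and 30.7, 12.8 and 14.5 CPM in tdTomato- (log2 fold change -2.73, SE 0.975). Of the 8 tested members 3 had positive and 5 negative log2 fold changes, with a median of -0.78, and the list took 0.0522% ± 0.0218 of non-mitochondrial counts in tdTomato+ and 0.0334% ± 0.0168 in tdTomato- (SD, n = 3 each). Most of the list's tdTomato+ counts were those of slc32a1 itself, 545 of 587, 273 of 525 and 451 of 774 in replicates 1, 2 and 3. In tdTomato- it gave 2 of 35, 48 of 498 and 48 of 501. The part of amacrine cells in the slc32a1 result was not tested.

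2 of the 12 features had no counts in any tdTomato- library. myo7ab, a paralogue of the myosin VIIA gene that is mutated in human Usher syndrome, had 70, 33 and 97 counts in tdTomato+ replicates 1, 2 and 3 (16.9, 19.8 and 38.8 CPM), against 0 in each tdTomato- library. Against a floor of 3 counts over the group it was at least 48.1-fold higher (edgeR adjusted p = 0.0189). The other, ENSDARG00000116069, carries no symbol and falls outside the rule for named genes. It had 19, 12 and 75 counts in tdTomato+, which was at least 25.5-fold higher (edgeR adjusted p = 0.0397), and most of its counts came from replicate 3.

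Among the other features called higher were rd3, cacna2d4a and camk2d1. rd3, whose human counterpart is needed to move guanylate cyclase to the outer segment, had 35.7, 48.1 and 48.4 CPM in tdTomato+ and 5.6, 6.9 and 10.5 CPM in tdTomato- (log2 fold change 2.45, SE 0.544, edgeR adjusted p = 0.0412). cacna2d4a, a subunit of the voltage-gated Ca2+ channel that mouse and human photoreceptors use at their synapses, had 23.4, 20.4 and 75.6 CPM in tdTomato+ and 0, 2.1 and 5.3 CPM in tdTomato- (log2 fold change 3.68, SE 0.828, edgeR adjusted p = 0.0422). A second feature with the same symbol averaged 107.4 ± 15.7 CPM in tdTomato+ and 30.1 ± 26.0 CPM in tdTomato- (SD, n = 3 each) and did not pass (log2 fold change 1.73, SE 0.646, edgeR adjusted p = 0.244), so how reads were divided between the cacna2d4a features is uncertain. camk2d1, a Ca2+/calmodulin-dependent kinase, had 145.5, 400.7 and 455.4 CPM in tdTomato+ and 72.5, 53.9 and 83.0 CPM in tdTomato-, with tdTomato+ replicate 1 well below the other tdTomato+ libraries (log2 fold change 2.26, SE 0.512).

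The remaining features called higher have more varied roles. si:busm1-57f23.1, on the LWS cone list and predicted to encode an inhibitor of endopeptidases, had 163.2, 229.5 and 182.7 CPM in tdTomato+ and 5.6, 20.6 and 32.5 CPM in tdTomato- (log2 fold change 3.18, SE 0.553, edgeR adjusted p = 0.0212). ppp4r4, a regulatory subunit of protein phosphatase, had 54.1, 73.3 and 62.0 CPM in tdTomato+ and 2.8, 13.7 and 9.7 CPM in tdTomato- (log2 fold change 2.68, SE 0.563). gmip, a GTPase-activating protein, had 60.3, 71.5 and 97.6 CPM in tdTomato+ and 13.9, 17.3 and 14.5 CPM in tdTomato- (log2 fold change 2.3, SE 0.481). For these genes the tdTomato+ libraries lay close together and far above the tdTomato- ones. nin, which encodes ninein, a protein that anchors microtubules at the centrosome, had 151.8, 440.4 and 329.9 CPM in tdTomato+ and 50.2, 70.0 and 81.3 CPM in tdTomato- (log2 fold change 2.18, SE 0.494). Its tdTomato+ values spread more widely, with replicate 1 lowest.

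**Figure D2:**
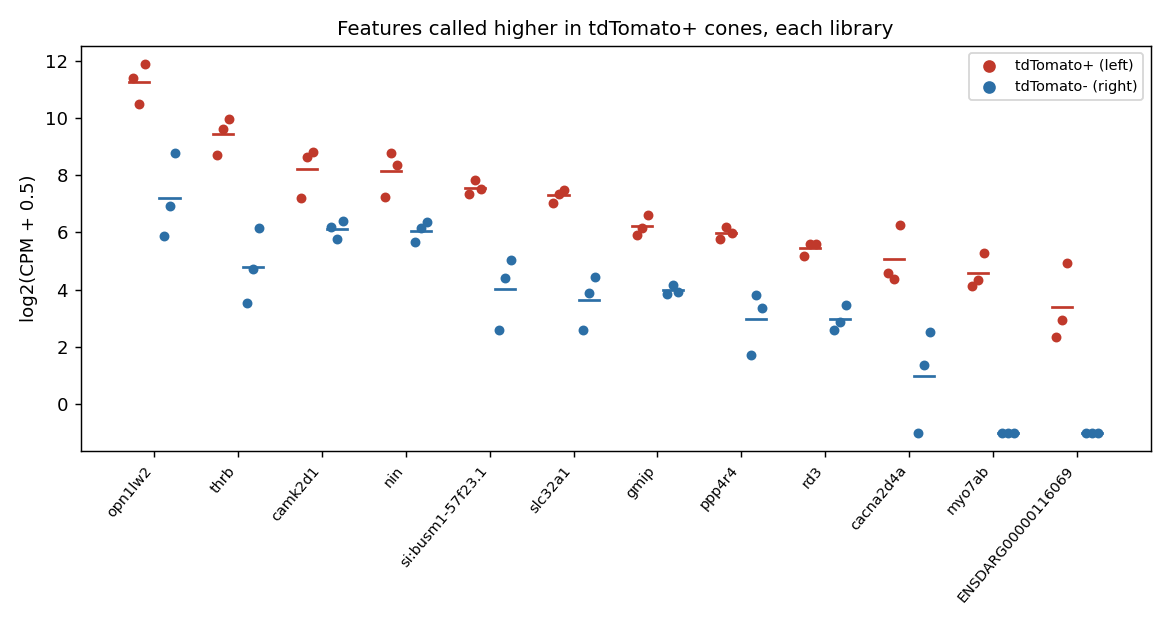
The 12 features called higher in tdTomato+ are ordered by their mean level there, and each point is 1 library as log2(CPM + 0.5), with the mean of each group as a bar; tdTomato+ (red) stands left of tdTomato- (blue). All tdTomato+ points lie above all tdTomato- points in every column, and myo7ab and ENSDARG00000116069 have no counts in tdTomato-.

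The lws:PAC(H) libraries, in which LWS cones were sorted by other reporters, are given beside these values as a description, on a scale fitted to all 12 libraries. thrb lay between 859.5 and 1272 CPM in LWS1 and between 941.2 and 1029 CPM in LWS2, with 585.7 to 1201 CPM in tdTomato+ and 13.3 to 98.3 CPM in tdTomato-. si:busm1-57f23.1 had 105.8 to 618.9 CPM in LWS1, 280.2 to 354.7 CPM in LWS2, 216.4 to 300.9 CPM in tdTomato+ and 6.63 to 44.9 CPM in tdTomato-. Both were thus high in each of the cone groups. slc32a1 had 10.7 to 79.2 CPM in LWS1 and 59.3 to 76.6 CPM in LWS2, against 184.1 to 215.0 CPM in tdTomato+ and 6.63 to 29.1 CPM in tdTomato-, so that the lowest LWS1 library fell within the range of tdTomato-. myo7ab had 0 to 27.0 CPM in LWS1, 15.7 to 41.5 CPM in LWS2, 23.6 to 45.9 CPM in tdTomato+ and 0 in tdTomato-. cacna2d4a had 64.8 to 105.9 CPM in LWS1, 35.7 to 45.1 CPM in LWS2, 26.8 to 89.5 CPM in tdTomato+ and at most 7.28 CPM in tdTomato-. The opn1lw2 feature called had 466.7 to 1627 CPM in LWS1 and 3283 to 4680 CPM in LWS2. It had 1880 to 4470 CPM in tdTomato+ and 69.65 to 610.5 CPM in tdTomato-, so its lowest LWS1 library also fell within the range of tdTomato-. For the remaining features every LWS1 and LWS2 library lay above every tdTomato- library, most narrowly for gmip (lowest LWS1 26.2 CPM, highest tdTomato- 24.1 CPM) and rd3 (18.9 and 14.6 CPM).

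The opsins separated the groups in opposite directions, but only 2 opsin features passed the test. The opn1lw2 feature that passed (ENSDARG00000115709) had 2720, 1434 and 3775 CPM in tdTomato+ and 58.5, 120.6 and 442.0 CPM in tdTomato- (log2 fold change 3.66, SE 0.769, edgeR adjusted p = 0.0353). A second opn1lw2 feature (ENSDARG00000044861) had 6027, 7691 and 7482 CPM in tdTomato+ and 105.9, 791.1 and 1377 CPM in tdTomato- (log2 fold change 3.22, SE 0.817, edgeR adjusted p = 0.067). Of the opn1lw1 features, ENSDARG00000115464 had a fold change of 3.30 on the log2 scale (SE 0.940, edgeR adjusted p = 0.101) and ENSDARG00000044862 one of 2.61 (SE 0.791, edgeR adjusted p = 0.128), and neither passed. These are near-identical copies, so the division of reads between them is uncertain. In all 4 LWS opsin features every tdTomato+ library lay above every tdTomato- library, and within tdTomato- replicate 1 was lowest and replicate 3 highest.

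The ultraviolet opsin opn1sw1 was the opsin feature called lower in LWS cones. It had 499.9, 1428 and 524.2 CPM in tdTomato+ and 4882, 11433 and 7047 CPM in tdTomato- (log2 fold change -3.25, SE 0.688, edgeR adjusted p = 0.0354). Leaving out any 1 of tdTomato+ replicates 1 and 3 and tdTomato- replicates 2 and 3 ended this call (edgeR adjusted p = 0.0835, 0.154, 0.109 and 0.0713), whereas it held without tdTomato- replicate 1 and tdTomato+ replicate 2 together (0.0214). The green opsins opn1mw3 and opn1mw4 did not overlap between groups either, with opn1mw4 at 354.8, 178.4 and 175.1 CPM in tdTomato+ and 663.3, 871.2 and 776.8 CPM in tdTomato- (log2 fold change -1.71, SE 0.463, edgeR adjusted p = 0.0858). The other green opsins and the blue opsin overlapped between the groups. opn1mw2 had 4741, 897.0 and 2030 CPM in tdTomato+ and 3807, 2704 and 3075 CPM in tdTomato-, and opn1sw2 had 3256, 1933 and 1451 CPM in tdTomato+ and 1811, 6665 and 5066 CPM in tdTomato-. For opn1mw1 and opn1mw2 the sign of the fold change turned in some fits, so no direction is given.

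Taken as a share of all cone opsin counts, not divided by transcript length, the LWS opsins made up 51.5% (95% Wilson interval 51.2 to 51.8), 77.4% (76.9 to 77.8) and 77.7% (77.3 to 78.0) in tdTomato+ replicates 1, 2 and 3. In tdTomato- they made up 2.13% (1.76 to 2.58), 6.64% (6.47 to 6.81) and 16.5% (16.2 to 16.9). The intervals cover counting error only, because PCR copies of a molecule were not told apart. The groups did not overlap (mean 68.8% ± 15 in tdTomato+ and 8.44% ± 7.37 in tdTomato-, SD, n = 3 each, two-sided exact permutation p = 0.1, the smallest possible here). Green opsins took 32.9% of cone opsin counts in tdTomato+ replicate 1, against 7.14% and 12.9% in replicates 2 and 3, and between 19.9% and 48.6% in tdTomato-. Summed over opn1mw1 to opn1mw4, tdTomato+ replicate 1 had 7877 CPM, which was above every tdTomato- library (6607, 4913 and 5253 CPM), while replicates 2 and 3 had 1551 and 2712 CPM. tdTomato+ replicate 1 therefore stood apart from the other sorted LWS cone libraries in its green opsin counts, and whether this came from the sort was not tested. In the LWS1 and LWS2 libraries the LWS opsins made up between 76.9% and 89.2% of cone opsin counts.

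**Figure D3:**
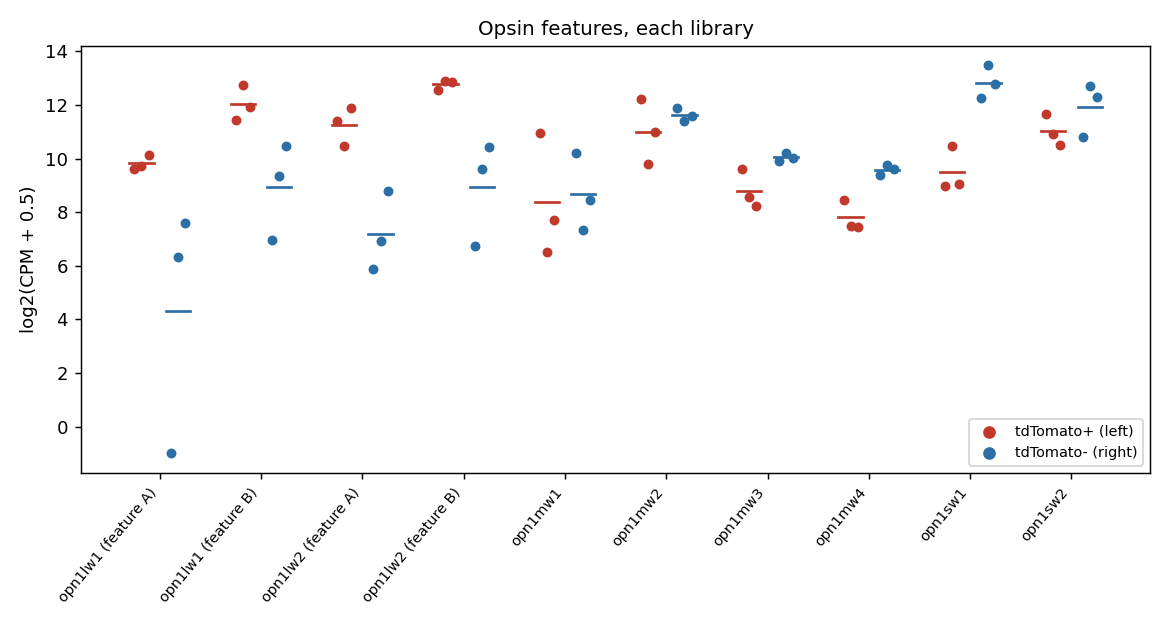
Opsin features are shown with each library as a point on log2(CPM + 0.5) and group means as bars, tdTomato+ (red) left of tdTomato- (blue). The 4 LWS opsin features, drawn as A and B for each symbol, lie higher in every tdTomato+ library; opn1lw1 A (ENSDARG00000115464) has no counts in tdTomato- replicate 1, and opn1lw2 A is the feature called.

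The LWS cone list held 16 features, of which 13 could be tested. Some members, among them gngt2a, gngt2b and nrip1a, had been reported to differ between the LWS1 and LWS2 libraries of this series. All 13 had a positive log2 fold change, with a median of 1.54, against 0.11 over all features tested. 3 passed the test, namely thrb, si:busm1-57f23.1 and opn1lw2, where 0.146% of all features tested were called higher. Of the 13, 9 did not overlap between the groups (8.71% of all features tested did so in this direction). Both counts include thrb, whose promoter drives the reporter, so its part in them is a check of the sort. The 13 also include the 4 LWS opsin features, near-identical copies that are all among the 9, and both gngt2a features. The members are therefore not all separate genes, and the shares of all features are only a rough comparison. six7, a homeobox factor that cones use to drive opsin expression, had 229.8, 243.9 and 231.1 CPM in tdTomato+ and 103.1, 108.4 and 121.7 CPM in tdTomato- (log2 fold change 1.08, SE 0.389, edgeR adjusted p = 0.221). It had little spread in either group, and the groups did not overlap. Neither cone transducin gamma gene passed the test, and the difference between them was not tested. gngt2a had 1894, 1715 and 786.5 CPM in tdTomato+ and 596.4, 660.0 and 713.5 CPM in tdTomato- for 1 of its features (log2 fold change 1.16, SE 0.489), and 514.1, 415.1 and 315.9 CPM in tdTomato+ and 158.8, 218.3 and 254.0 CPM in tdTomato- for the other (log2 fold change 0.97, SE 0.425). gngt2b had 4942, 6420 and 4678 CPM in tdTomato+ and 3612, 4591 and 5047 CPM in tdTomato- (log2 fold change 0.28, SE 0.541), and its groups overlapped. As a share of counts outside mitochondrially encoded features, the list took 6.58%, 6.63% and 6.02% in tdTomato+ and 1.85%, 2.07% and 2.73% in tdTomato-. As a share of all counts it took 5.14%, 1.88% and 3.54% in tdTomato+ and 0.851%, 0.963% and 1.25% in tdTomato-, the lowest tdTomato+ share being that of the library with the highest mitochondrial share.

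None of the 31 tested genes of cone phototransduction passed the test (0.146% of all features tested were called higher and 1.99% lower). Their median log2 fold change was 0.83, with 22 positive and 9 negative, 11 higher and 1 lower at an unadjusted p under 0.05 (4.74% and 8.68% of all features tested), and the list took 12.7% ± 1.68 of non-mitochondrial counts in tdTomato+ and 7.93% ± 1.08 in tdTomato- (SD, n = 3 each). GNAT2, the cone transducin alpha subunit, had 7022, 7885 and 6796 CPM in tdTomato+ and 2508, 3753 and 4466 CPM in tdTomato- (log2 fold change 1.02, SE 0.561, edgeR adjusted p = 0.486). Its groups did not overlap, yet the test did not separate them. guca1d, a guanylate cyclase activator, had 25.8, 40.3 and 97.2 CPM in tdTomato+ and 0, 2.1 and 17.1 CPM in tdTomato- (log2 fold change 2.85, SE 0.898, edgeR adjusted p = 0.147) for 1 of its features. grk7b, a cone opsin kinase, went the other way, with 10.6, 21.0 and 18.4 CPM in tdTomato+ and 19.5, 120.6 and 121.3 CPM in tdTomato- (log2 fold change -2.43, SE 0.644, edgeR adjusted p = 0.0787). rcvrn3, a recoverin that slows opsin phosphorylation, had 1709, 815.9 and 600.2 CPM in tdTomato+ and 432.0, 273.4 and 269.3 CPM in tdTomato- (log2 fold change 1.69, SE 0.518).

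Rod transcripts were present in both groups. None of the 22 tested rod features passed the test (0.146% of all features tested were called higher and 1.99% lower). Their median log2 fold change was -0.57, with 17 of 22 negative, and 4 had tdTomato+ libraries wholly below the tdTomato- libraries (10.8% of all features tested did). At an unadjusted edgeR p under 0.05 there were 3 higher and 2 lower, against 4.74% and 8.68% of all features tested. GNAT1, the rod transducin alpha subunit, had 959.0, 1712 and 583.4 CPM in tdTomato+ and 1639, 2041 and 1793 CPM in tdTomato- (log2 fold change -0.75, SE 0.519), so its groups overlapped. The rod list took 1.2%, 2.69% and 1.27% of non-mitochondrial counts in tdTomato+ and 6.34%, 3.94% and 3.06% in tdTomato-. cngb1b, a channel subunit, was 1 of the 5 tested rod features with a positive log2 fold change. It had 36.4, 107.5 and 205.9 CPM in tdTomato+ and 52.95, 28.9 and 25.5 CPM in tdTomato- (log2 fold change 1.76, SE 0.622).

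Among the cell type lists the Müller glia list had the most calls. Of 20 features matched to the list by symbol 14 could be tested. Of these, 9 were lower in tdTomato+ cells and none higher, against 1.99% of all features lower. In each of the 14 the fold change was below zero on the log2 scale with an unadjusted p under 0.05, the median was -3.60, and 12 did not overlap between the groups (10.8% of all features tested did so in this direction). glula, a glutamine synthetase that converts glutamate taken up by glia, had 46.8, 389.3 and 150.3 CPM in tdTomato+ and 2087, 2739 and 2325 CPM in tdTomato- (log2 fold change -3.61, SE 0.724, edgeR adjusted p = 0.0312). slc1a2b, a glutamate transporter, had 7.2, 103.3 and 72.4 CPM in tdTomato+ and 880.6, 1037 and 832.2 CPM in tdTomato- (log2 fold change -3.92, SE 0.781, edgeR adjusted p = 0.0312). glulb, the paralogue of glula, was lower as well (log2 fold change -3.59, SE 0.716).

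The other members called lower were a lipid carrier, enzymes, a water channel and an S100 protein. Which cells their transcripts came from was not tested. apoeb, the lipid carrier apolipoprotein E, had 35.2, 221.1 and 125.2 CPM in tdTomato+ and 1917, 2185 and 1935 CPM in tdTomato- (log2 fold change -3.99, SE 0.673, edgeR adjusted p = 0.0209). The prostaglandin D synthases ptgdsb.1 and ptgdsb.2 had log2 fold changes of -6.39 and -4.67, and ptgdsb.1 was nearly absent from LWS cones, with 0.5, 1.8 and 0 CPM in tdTomato+ and 39.0, 70.0 and 63.7 CPM in tdTomato-. cahz, a carbonic anhydrase (log2 fold change -3.65), aqp1a.1, a water channel (-4.51), and s100a10b, an S100 protein (-2.70), were lower too. The 5 members that did not pass were mt2, rlbp1a, gfap, fabp7a and VIM, with log2 fold changes between -3.18 and -2.13 and edgeR adjusted p between 0.0561 and 0.266.

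The tdTomato+ libraries differed from each other in these genes. All 14 were highest in tdTomato+ replicate 2 and 12 were lowest in replicate 1, whereas over all features tested 29.2% were highest in replicate 2 and 41.1% lowest in replicate 1. The list took 0.0344%, 0.313% and 0.134% of non-mitochondrial counts in tdTomato+ and 1.29%, 2.52% and 2.15% in tdTomato-. tdTomato+ replicate 2 was also the library with the highest mitochondrial share, and the part of either in the result was not tested. Without tdTomato+ replicate 2, 8 of the 9 were still called. Without tdTomato+ replicate 3 or tdTomato- replicate 2 none was, and without tdTomato- replicate 3 only 3 were.

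**Figure D4:**
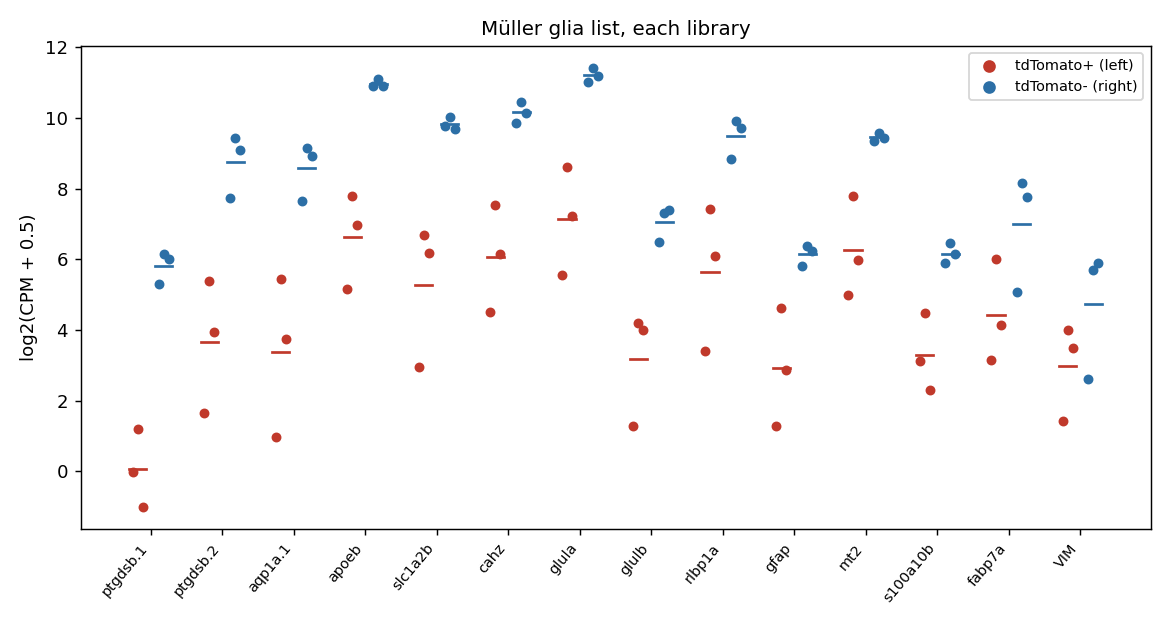
The 14 tested Müller glia features are ordered by log2 fold change, each library is a point on log2(CPM + 0.5) and bars are group means, with tdTomato+ (red) left of tdTomato- (blue). The tdTomato- libraries lie higher on average in every column, and the middle red point, tdTomato+ replicate 2, is the highest red point in all 14.

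Apart from these, the features with the largest change among those lower in LWS cones included signalling molecules and enzymes with few or no counts in the sorted cones. Gene symbols in capitals below are as the reference table gives them for the zebrafish feature. 4 features had no count in any tdTomato+ library. dkk1b, a secreted inhibitor of Wnt signalling, had 8.4, 31.3 and 24.2 CPM in tdTomato-, so that it was at least 75.3-fold lower in tdTomato+ against a floor of 3 counts over the group. FGF8, a fibroblast growth factor, was at least 18.9-fold lower, with 16.7, 6.6 and 5.7 CPM in tdTomato-. PDGFRL, related to the platelet-derived growth factor receptors, was at least 19.9-fold lower and DHRS3, a dehydrogenase that reduces retinal to retinol, at least 12.9-fold lower. With 28 to 163 counts summed over the tdTomato- libraries, these are features of low level in both groups.

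Some features had 1 to 3 counts in the tdTomato+ libraries together, and for them the ratio of pooled levels is given with its counting interval. INHBA, which encodes a subunit of activin, had 3 counts in tdTomato+ and 199 in tdTomato-, a level 92.0 times as high in tdTomato- (95% interval 31.0 to 449.8), while a second INHBA feature did not pass (log2 fold change -3.0, SE 1.01). her15.1, a transcriptional repressor of the Notch pathway, had 2 counts in tdTomato+ and 126 in tdTomato-, a ratio of 87.4 (23.7 to 729.2) in favour of tdTomato-. SLCO2A1, a prostaglandin transporter, had 2 and 116 counts (80.4, 21.8 to 671.9), in the same order. The intervals are wide because so few reads were seen in LWS cones, and they cover counting error only, without the spread between libraries. The rule also named lipg (67.0, 22.5 to 328.7), ROR1 (74.9, 12.9 to 3011), cyp2ad6 (72.1, 12.4 to 2902), si:ch211-66e2.5 (116.5, 20.3 to 4654), grna.1 (64.5, 17.4 to 540.3) and ENSDARG00000111343 (127.6, 43.2 to 622.3), each ratio being that of tdTomato- over tdTomato+.

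Among those with more counts, si:ch211-214p13.3, an uncharacterised gene, had 0.5, 1.8 and 2.8 CPM in tdTomato+ and 133.8, 58.7 and 73.8 CPM in tdTomato- (log2 fold change -5.73, SE 0.731, edgeR adjusted p = 0.0125). It had the smallest p of all features. itgb5, an integrin subunit that binds the extracellular matrix, had 4.1, 2.4 and 4.0 CPM in tdTomato+ and 52.95, 61.4 and 69.9 CPM in tdTomato- (log2 fold change -4.09, SE 0.549, edgeR adjusted p = 0.0125), with little spread in either group. sbspon, a gene for a secreted protein with somatomedin B and thrombospondin domains, had 0, 1.8 and 1.2 CPM in tdTomato+ and 139.3, 41.1 and 29.9 CPM in tdTomato- (log2 fold change -6.25, SE 1.03).

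Markers of inner retinal neurons took only a small share of counts in either group. Of the features on these lists 13 of 23 for bipolar cells, 8 of 25 for amacrine cells, 2 of 10 for horizontal cells and 6 of 22 for ganglion cells could be tested. On the bipolar list 2 of the 13 were called lower and none higher, against 1.99% and 0.146% of all features tested. The bipolar list's median log2 fold change was -0.99, with 10 negative and 3 positive. Among the bipolar list members called lower in tdTomato+, rdh10a, a retinol dehydrogenase, had 0.7, 11.4 and 5.6 CPM in tdTomato+ and 52.95, 117.6 and 72.1 CPM in tdTomato- (log2 fold change -3.86, SE 0.802, edgeR adjusted p = 0.0342). lrit3a, a protein of the photoreceptor to bipolar cell synapse, went the other way without passing, with 197.9, 82.9 and 179.9 CPM in tdTomato+ and 47.4, 50.6 and 54.5 CPM in tdTomato- (log2 fold change 1.59, SE 0.461, edgeR adjusted p = 0.108).

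The ganglion cell list had a median log2 fold change of -2.37 and no call. Calls among all features tested were 0.146% higher and 1.99% lower. Members with few counts in tdTomato+, such as ALCAM, passed the filter on low counts mainly through tdTomato-. That favours a negative sign, so the list's median is not strictly comparable with that of all features. sncga, a synuclein, had 2.9, 31.8 and 13.6 CPM in tdTomato+ and 30.7, 94.7 and 111.2 CPM in tdTomato-, and rbpms2a, an RNA-binding protein that marks ganglion cells, had 0.2, 8.4 and 8.0 CPM in tdTomato+ and 33.4, 28 and 28.6 CPM in tdTomato-. ALCAM, an adhesion molecule, had 0.2, 3.6 and 3.6 CPM in tdTomato+ and 11.1, 14.6 and 14.5 CPM in tdTomato-. All 6 tested members were highest in replicate 2 of the tdTomato+ libraries and lowest in replicate 1, the order seen for most Müller glia genes. Of all features tested, 29.2% were highest in replicate 2 and 41.1% lowest in replicate 1. On the horizontal cell list PROX1, a homeobox factor, had 0.2, 4.2 and 1.6 CPM in tdTomato+ and 22.3, 14.9 and 15.8 CPM in tdTomato- (log2 fold change -3.22, SE 0.893, edgeR adjusted p = 0.0922), and TFAP2A had at most 6.6 CPM in any library. PROX1 could be tested only through its counts in tdTomato-.

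Few blood, immune and vessel markers could be tested. 5 of 13 features on the immune and blood list could be tested, with no call and a median log2 fold change of -2.79. Calls among all features tested were 0.146% higher and 1.99% lower. Here and on the vascular list, members with few counts in tdTomato+ were tested mainly or only through tdTomato-, which favours a negative sign. lcp1, an actin-bundling protein of leukocytes, had 0.2, 1.8 and 0.4 CPM in tdTomato+ and 30.7, 7.7 and 7.0 CPM in tdTomato- (log2 fold change -4.19, SE 1.03, edgeR adjusted p = 0.0616). The antigen presentation gene cd74a had 5.1, 26.4 and 1.6 CPM in tdTomato+ and 200.6, 97.4 and 36.0 CPM in tdTomato- (log2 fold change -3.35, SE 0.917, edgeR adjusted p = 0.0882), and cd74b had a log2 fold change of -2.79 (SE 0.749). On the vascular list, with 3 of 11 tested, notch3, a receptor of pericytes, had 0.2, 3.0 and 6.8 CPM in tdTomato+ and 83.6, 29.8 and 29.0 CPM in tdTomato- (log2 fold change -3.80, SE 0.922, edgeR adjusted p = 0.0576), pdgfrb had a log2 fold change of -1.65 (SE 0.627) and KDR one of -2.52 (SE 1.22). Of 16 retinal pigment epithelium features 2 could be tested and neither passed.

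**Figure D5:**
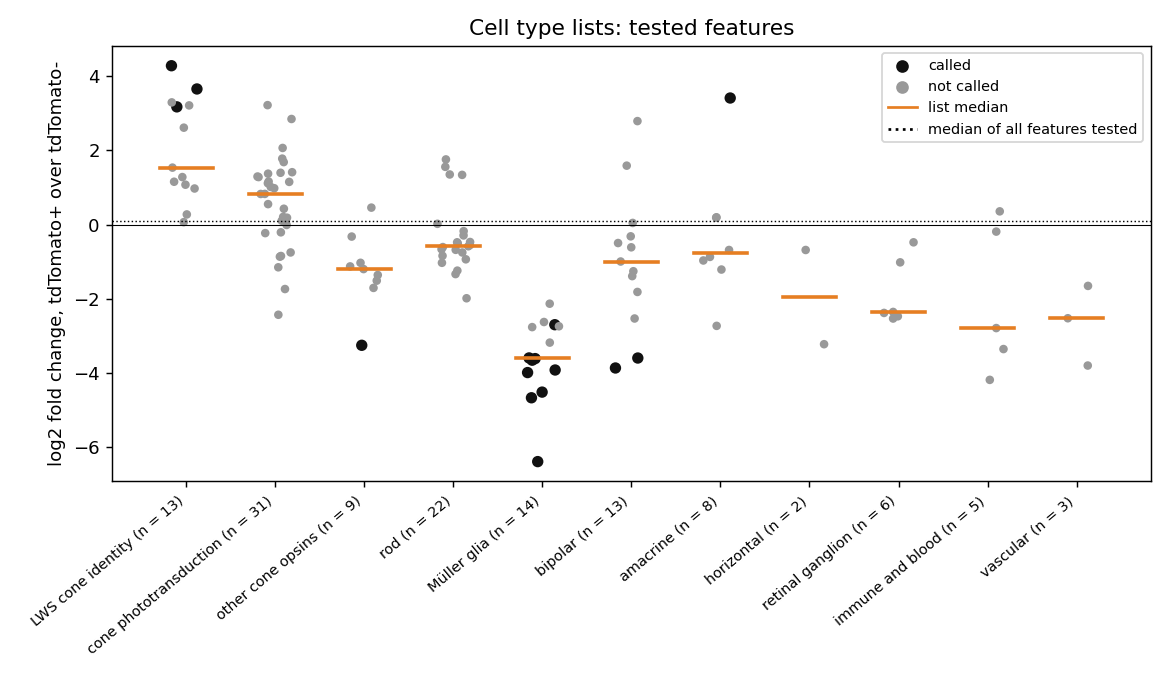
Each point is 1 tested feature of a cell type list, placed by its log2 fold change of tdTomato+ over tdTomato-; black points are called, orange bars are list medians and the dotted line is the median of all features tested. The Müller glia list lies wholly below zero (median -3.60), the LWS cone list wholly above it (median 1.54), and slc32a1 is the called point of the amacrine list.

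Among the lists that do not mark a cell type, the immediate early and stress list had the most calls. Of 37 tested members 5 were lower in tdTomato+ cells and none higher, and at an unadjusted p under 0.05 there were 15 lower and 1 higher. Of all features tested, 1.99% were called lower, and 8.68% lower and 4.74% higher reached that unadjusted p. The list's median log2 fold change was -0.62, with 24 negative and 13 positive, and it took 0.860%, 0.859% and 0.976% of non-mitochondrial counts in tdTomato+ and 1.09%, 0.860% and 0.840% in tdTomato-, so the groups overlapped in the list's summed level. jun, an AP-1 transcription factor, had 7.0, 22.8 and 12 CPM in tdTomato+ and 144.9, 95.6 and 99.7 CPM in tdTomato- (log2 fold change -3.03, SE 0.550, edgeR adjusted p = 0.0237). fosab, its AP-1 partner, had 8.0, 39.7 and 29.2 CPM in tdTomato+ and 183.9, 138.2 and 138.8 CPM in tdTomato- (log2 fold change -2.59, SE 0.576, edgeR adjusted p = 0.0412), and junbb (-2.59), the phosphatase gene dusp2 (-2.94) and ddit4, an inhibitor of mTOR signalling (-3.73), were lower as well. 17 of the 37 were highest in replicate 2 among the tdTomato+ libraries, against 29.2% of all features tested. With tdTomato+ replicate 3, tdTomato- replicate 2 or tdTomato- replicate 3 left out, none of the 5 was called.

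Among genes of thyroid hormone signalling and other nuclear receptors, 25 were tested. The one call was thrb, whose promoter drives the reporter (0.146% of all features tested were called higher). dio2, the deiodinase that makes active thyroid hormone, had 0.5, 39.1 and 17.6 CPM in tdTomato+ and 72.5, 340.7 and 241.2 CPM in tdTomato- (log2 fold change -3.57, SE 1.01, edgeR adjusted p = 0.1). Its groups did not overlap, but it did not pass. nr2f5, an orphan nuclear receptor, had 0, 1.2 and 0 CPM in tdTomato+ and 22.3, 6.0 and 10.5 CPM in tdTomato- (log2 fold change -5.17, SE 1.21, edgeR adjusted p = 0.0502), just outside the threshold. nrip1a, a nuclear receptor corepressor of the LWS cone list, had 5.1, 28.2 and 45.2 CPM in tdTomato+ and 2.8, 7.4 and 14.1 CPM in tdTomato- (log2 fold change 1.54, SE 0.802).

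No call was made among 18 photoreceptor transcription factors, 29 photoreceptor synapse genes, 33 circadian genes or 13 mitochondrially encoded features. Calls among all features tested were 0.146% higher and 1.99% lower, so lists of this size can have no call at the background share. The median log2 fold changes of these lists were 0.58, 0.37, 0.48 and 0.05. No circadian or mitochondrially encoded feature reached an unadjusted edgeR p under 0.05, against 4.74% higher and 8.68% lower of all features tested. six3b and SIX3, homeobox factors of the forebrain and eye, had log2 fold changes of -2.97 (SE 0.829) and -3.05 (SE 0.864). pcloa, which encodes a scaffold of the presynaptic active zone, had 67.3, 395.3 and 1002 CPM in tdTomato+ and 122.6, 64.6 and 48.8 CPM in tdTomato- (log2 fold change 2.67, SE 0.791, edgeR adjusted p = 0.119). Its groups overlapped, because tdTomato+ replicate 1 lay below tdTomato- replicate 1, though above the other tdTomato- libraries. Of the 29 synapse genes, 21 were lowest in replicate 1 among the tdTomato+ libraries, against 41.1% of all features tested. sv2ba, a synaptic vesicle glycoprotein, did not overlap, with 146.8, 174.2 and 179.5 CPM in tdTomato+ and 61.3, 84.3 and 88.8 CPM in tdTomato- (log2 fold change 1.08, SE 0.404), and 1 of the features of STX3, the ribbon synapse syntaxin, did not either (log2 fold change 1.83, SE 0.704). SAMD7, a photoreceptor repressor, had a log2 fold change of 1.56 (SE 0.611), and the clock genes with the smallest p, ciarta, rorca and PER1, had 1.70 (SE 0.790), 1.22 (SE 0.567) and 1.25 (SE 0.649).

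In energy metabolism, eno1a, an enolase of glycolysis, was the one call of 30 tested genes, with 156.2, 190.4 and 124.8 CPM in tdTomato+ and 1232, 837.2 and 714.0 CPM in tdTomato- (log2 fold change -2.56, SE 0.461, edgeR adjusted p = 0.0237). Of all features tested, 1.99% were called lower. A feature of the glucose transporter SLC2A1 had 0.5, 0 and 1.2 CPM in tdTomato+ and 5.6, 7.7 and 15.8 CPM in tdTomato- (log2 fold change -3.99, SE 0.943, edgeR adjusted p = 0.0514). 1 of the features of pfkmb, a phosphofructokinase, went the other way, with 58.7, 83.5 and 72.0 CPM in tdTomato+ and 11.1, 22 and 27.7 CPM in tdTomato- (log2 fold change 1.74, SE 0.493, edgeR adjusted p = 0.0992). The list as a whole lay near the centre of all features, with a median of -0.16. Of 39 tested outer segment and visual cycle features, that of DHRS3 named above was the one call, also lower, against 1.99% of all features tested. RGR, an opsin-like protein of Müller glia and pigment epithelium that isomerises retinal, had 1.4, 3.6 and 2.4 CPM in tdTomato+ and 16.7, 22.3 and 13.6 CPM in tdTomato- (log2 fold change -2.86, SE 0.696, edgeR adjusted p = 0.0576), and rp1l1a, a protein of the photoreceptor axoneme, had 67.3, 349.1 and 806.9 CPM in tdTomato+ and 183.9, 56.6 and 78.6 CPM in tdTomato- (log2 fold change 1.97, SE 0.762).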

How the data were processed

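Adult zebrafish retinas were sorted by FACS, and poly-A selected TruSeq libraries were sequenced. The authors used Trimmomatic for trimming, STAR and Salmon for alignment to GRCz11 and tximport for import into R. They deposited raw counts, whole numbers with no scaling, for 30258 Ensembl features. Per the processing notes the versions were Trimmomatic 0.36, FastQC 0.11.5 and Salmon 0.13.1. The study's methods name another Salmon version, and which aligner's output the deposited counts hold is not given in the sources used here. The deposited tables of the authors' own DESeq2 comparisons (fold changes, p-values and 12 columns of per-sample values) were used for symbols only.

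Symbols came from those tables (1010 features) and otherwise from a reference table of gene IDs (22639 features). Tests were run in R 4.3.3 (DESeq2 1.42.0, limma 3.58.1, edgeR 4.0.16) and Python 3.11.15 (scipy 1.17.1). Features were kept by filterByExpr, scaled by TMM and tested by edgeR's quasi-likelihood test on the 6 libraries, with Benjamini-Hochberg adjustment over all 8236 features tested. A call needed FDR < 0.05 and an absolute fold change above 2. Standard errors were derived from the fold change and the test statistic. The pipeline was tested on simulated counts.

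The comparison and the 20 lists were chosen with earlier results of these data known. Named genes were the 15 largest changes with a symbol and non-overlapping libraries and the 5 smallest p in each direction, called list members with the 3 smallest p of each list, a few fixed cone and rod genes, and the 5 highest features of each group, which were all mitochondrially encoded and are given as a list only, as are the pigment epithelium genes. opn1mw1, opn1mw2, opn1mw3, opn1sw2, nrip1a, the second features of cacna2d4a and INHBA, the Müller glia members that did not pass and all genes under other observations were chosen after their values were seen, as was the comparison of opsin shares. Alternatives changed the test, scaling, filter, samples and replicate block. A planned motif count in promoters was not run, and no sequences were used here. Some genes of the rule are not reported here.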

Additional observations from a re-analysis of the deposited data

How the results depend on the processing

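Against 12 features higher and 164 lower in the edgeR test, DESeq2 called 73 and 425, limma-voom 32 and 356, voom with sample quality weights 230 and 406, and glmTreat against a fold change of 2 called 3 and 37. Scaling by library totals gave 35 and 284, no filter on low counts 90 and 527, and all 4 groups in one fit 90 and 288. Library totals moved the median of all features to 0.28 from 0.11, and the share of lower calls among all calls, 93.2%, fell to 63.8% with quality weights and 76.2% with all 4 groups. Leaving out 1 library gave 0 to 22 higher (0 without tdTomato+ replicate 3 or tdTomato- replicate 2, 5 without tdTomato- replicate 3, 6 without tdTomato+ replicate 2, 14 without tdTomato- replicate 1 and 22 without tdTomato+ replicate 1) and 0 to 158 lower (0, 1, 36, 100, 158 and 83 in the same order of libraries). An alternative added after seeing the data, without tdTomato- replicate 1 and tdTomato+ replicate 2, called 9 and 150, of which 4 and 96 were among the 12 and the 164. Without tdTomato+ replicate 1 the difference in mitochondrial share turned to 2.58 percentage points and that of the 10 highest features to 1.13, while without tdTomato+ replicate 2 they were -22.3 and -18.8.

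Same-numbered libraries did not deviate together (r = -0.043, 0.090 and -0.088 across features). This cannot show whether they came from the same sort, because the 2 fractions of a sort need not deviate alike. The main fit treated them as unpaired. The replicate block called 13 higher and 131 lower, 8 and 105 of them shared with the fit without it. Of 114 genes followed through the alternatives, no called gene reversed. opn1mw2 turned to a log2 fold change of 0.16 under library totals, 0.09 without tdTomato+ replicate 2 (-1.13 without tdTomato+ replicate 1) and 0.34 under the added alternative, and opn1mw1 to -0.22 (voom), -0.66 (quality weights), -0.28 (replicate block) and -1.90 (without tdTomato+ replicate 1), against 2.25 under the added alternative. The cause was not tested. Depth limits tdTomato- replicate 1 most, where 3 counts equal 6.53 CPM of its total.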

Other observations

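Further genes called lower in LWS cones, not among the features matched to the lists, are given singly. List entries were matched by symbol. The Müller glia entries cx43 and her6, other names for gja1b and HES1, therefore found no feature, and neither gene is in that list's counts. They were picked after their values were seen, and no test of them as groups was run. ALDH1A2, which makes retinoic acid, had 0.2, 0 and 1.6 CPM in tdTomato+ and 25.1, 37.5 and 13.2 CPM in tdTomato- (log2 fold change -5.24, SE 0.949, edgeR adjusted p = 0.0237). cyp26a1, which degrades it, had 0.5, 19.8 and 11.6 CPM in tdTomato+ and 92.0, 369.3 and 271.1 CPM in tdTomato- (log2 fold change -4.59, SE 0.953, edgeR adjusted p = 0.0342). HES1, a target of Notch signalling, had 0, 4.8 and 3.6 CPM in tdTomato+ and 16.7, 77.4 and 109.0 CPM in tdTomato- (log2 fold change -4.75, SE 1.04), HEY1 had a log2 fold change of -4.45 (SE 0.900), and lfng, a glycosyltransferase that modifies Notch, had one of -4.12 (SE 0.937).

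The Wnt receptors FZD7 and fzd5 were lower in tdTomato+ beside dkk1b. fzd5 had 0.2, 1.8 and 2.0 CPM in tdTomato+ and 39.0, 18.5 and 13.2 CPM in tdTomato- (log2 fold change -4.12, SE 0.875, edgeR adjusted p = 0.0368), and FZD7 had 1 count in tdTomato+ and 47 in tdTomato-. ptgs2b, a cyclooxygenase that starts prostaglandin synthesis, had 1.4, 7.8 and 6.0 CPM in tdTomato+ and 117.0, 73.9 and 58.9 CPM in tdTomato- (log2 fold change -4.06, SE 0.676, edgeR adjusted p = 0.0209). Also lower were gja1b, a gap junction protein (log2 fold change -3.95, SE 0.902), mlc1, a membrane protein of astrocytes (-4.72, SE 0.938), and HEPACAM, its adhesion partner (-4.89, SE 1.02). In tdTomato+ replicate 1 mlc1 and HEPACAM had no counts.

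The 164 features lower in LWS cones had an uneven order of tdTomato+ libraries. 99 of them (60.4%) were highest in replicate 2 and 132 (80.5%) lowest in replicate 1 of the tdTomato+ libraries, against 29.2% and 41.1% of all features tested. Of the photoreceptor synapse and nuclear receptor features, 19 of 29 and 13 of 25 were highest in tdTomato+ replicate 3, against 37.1% of all features tested. No test of these orders was run.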
